A study of Homo sapiens with 25 samples.

Results

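The RNA that came down with the S181E mutant of IGF2BP1 was compared with the RNA that came down with the RQ mutant in unstressed cells. RIP-seq, in which a tagged protein is captured together with its RNA and this RNA is sequenced, gave 3 libraries per mutant, which were taken by their labels, so that 6 of the 25 RIP libraries of the series form the comparison. Both lines were HCT116 human colorectal carcinoma cells with Tet-OsTIR1-PURO, IGF2BP2 KO and IGF2BP3 KO, and all 6 dishes received PBS. They differed in the transgene, mCherry-IGF2BP1 S181E or mCherry-IGF2BP1 RQ, where RQ stands for R167Q, R168Q, R174Q and R178Q. The knockouts had come from single-cell clones, the transgenes were delivered by lentivirus, and each line was a population sorted within a narrow range of mCherry. There was 1 line per mutant and its 3 dishes were grown separately, so the replicate error covers dishes, and an effect of the mutation cannot be told apart from another difference between the lines. The question was which transcripts separate the phosphomimetic mutant from the RGG mutant when wild-type IGF2BP1 is not the reference.

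IGF2BP1 is an oncofetal RNA-binding protein with RRM and KH domains that binds many mRNAs and is known for stabilising them and controlling their translation and localisation. Disordered linkers join its domains, and the linker between the RRM and the KH domains carries RGG/RG motifs, whose arginines often contact RNA and other proteins. In S181E a glutamate stands in for a phosphorylated serine, and in RQ glutamines remove the positive charge of arginines nearby.

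The stretch of the IGF2BP1 coding sequence that holds all 5 mutated residues is printed to show how close the mutations of both lines lie. It covers codons 165 to 183 of transcript ENST00000290341.8, in 1 exon on the plus strand at chr17:49038259-49038315 (hg38, GENCODE), with the codons for R167, R168, R174, R178 and S181 in capitals. The reference is shown, and the codons of the transgenes may differ.
IGF2BP1 codons: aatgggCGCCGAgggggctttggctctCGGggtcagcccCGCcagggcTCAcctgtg
All mutated residues fell within these 57 bases, and each reference codon encoded the residue named in the mutation.

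The total count per library lay between 23063983 and 32398929 in S181E and between 28273651 and 60273548 in RQ. Protein-coding genes took 63.3 to 66.3% of the S181E counts and 60.5 to 63.2% of the RQ counts, without overlap (exact permutation test, two-sided, p = 0.1, the smallest p that 3 against 3 libraries allow). Across 8734 genes, Pearson's r of log2 levels was 0.959 to 0.985 between S181E libraries and 0.944 to 0.988 between RQ libraries, and RQ replicate 3 stood farthest from its group, at 0.965 and 0.944. Of 10 colon epithelial markers, 6 exceeded 10 CPM (TMM-normalized counts relative to library size) in all 6 libraries, KRT8 highest among them, while CEACAM5 and CEACAM6 were at 0. Their summed level was 682 to 857 CPM in S181E and 678 to 1058 CPM in RQ. Of the 7 tested, 2 were called, both lower in S181E. They were CDH1 (log2 fold change -0.51, adjusted p = 0.044) and ELF3 (-0.92, adjusted p = 1.8e-05). No blood or mesenchymal marker exceeded 10 CPM in all 6 libraries. The mesenchymal sum was 13.0 to 20.9 CPM in S181E and 10.5 to 14.0 CPM in RQ. RUNX2, in this set and not tested, was at 5.29 to 9.69 CPM in S181E and 1.40 to 1.90 CPM in RQ. PTPRC and COL1A2 were at 0. Of 6 neural or kidney markers, PAX2 and SYT1 exceeded 10 CPM in all 6 libraries, with a summed level of 103 to 145 CPM in S181E and 161 to 196 CPM in RQ, without overlap, and SYT1 was called lower (log2 fold change -0.58, adjusted p = 0.0047).

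S181E and RQ differed in many transcripts, in both directions. Of the 8734 protein-coding genes tested, 746 were called lower in S181E (8.54%) and 881 higher (10.1%), together 18.6%, with the quasi-likelihood test of edgeR and Benjamini-Hochberg adjusted p-values. A call needed an adjusted p below 0.05 and a difference above 20%. The 3 S181E libraries all lay below the 3 RQ libraries for 1032 genes (11.8%) and all above for 1382 (15.8%), together 27.6% of the genes tested. Most called differences were moderate, with a median log2 fold change of -0.60 among the genes called lower and 0.51 among those called higher. RIP levels were not divided by RNA levels in the cell, so the amount of a transcript and the share of it that was bound cannot be told apart in any result given here. The count depended on the libraries that shared the fit, since a fit to the 6 libraries alone called 217 genes lower and 174 higher, and without S181E replicate 3 the number of higher genes was 556. Scaling by total counts instead of TMM moved the share of lower genes among the calls from 45.9% to 28.3%, with 541 lower and 1368 higher.

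The transcripts with the largest deficits in S181E encode a polyamine enzyme, transcription factors and a growth factor. SAT1 (chrX), which encodes the acetyltransferase that starts polyamine breakdown, was at 45.8, 44.4 and 35.9 CPM in the S181E libraries and at 195, 234 and 155 CPM in the RQ libraries (log2 fold change -2.21 ± 0.17 (SE), adjusted p = 7.2e-09). The groups did not overlap, and the highest S181E library was far below the lowest RQ library. MKX, a homeobox transcription factor, was at 11.1, 11.6 and 15.7 CPM in S181E and at 54.9, 49.9 and 67.2 CPM in RQ (log2 fold change -2.16 ± 0.22 (SE), adjusted p = 2.4e-07). AREG, which encodes the EGF receptor ligand amphiregulin, was at 49.5, 55.3 and 42.7 CPM in S181E and at 169, 237 and 129 CPM in RQ (log2 fold change -1.86 ± 0.17 (SE), adjusted p = 5.7e-08).

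Further transcription factors were among the 10 lowest. NR2F1, an orphan nuclear receptor, was at 20.9, 23.8 and 26.8 CPM against 75.9, 70.3 and 71.1 CPM (log2 fold change -1.61 ± 0.14 (SE), adjusted p = 3.2e-08). ONECUT3, a homeobox protein, had a log2 fold change of -1.51. The groups were separate for each of these genes, as the choice of genes required. The 10 also included PLEKHA4 (-1.55), PDE7A (-1.51), a cAMP phosphodiesterase, RB1CC1 (-1.51), which acts at the start of autophagy, and RPS20 (-1.58), a protein of the small ribosomal subunit.

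The transcripts with the largest excess in S181E included secreted factors and cytoskeletal proteins. SYTL2, which encodes an effector of RAB27 in vesicle transport, was at 73.9, 59.5 and 105 CPM in S181E and at 10.5, 9.56 and 9.56 CPM in RQ (log2 fold change 3.01 ± 0.21 (SE), adjusted p = 2.5e-09). VSNL1, a neuronal calcium sensor, was at 16.6, 13.2 and 16.8 CPM in S181E and at 2.31, 2.75 and 0.51 CPM in RQ (log2 fold change 2.99 ± 0.52 (SE), adjusted p = 0.00028). Both genes were low in every RQ library. VSNL1 lay below the filter of 10 CPM in all of them and passed through libraries where it was higher. The size of its fold change thus rests on a level near the floor. FGF2, a fibroblast growth factor, was at 40.8, 34.5 and 43.4 CPM against 11.2, 9.3 and 11.2 CPM (log2 fold change 1.91 ± 0.22 (SE), adjusted p = 1.7e-06). BMP4, a secreted ligand of the TGF-beta family, was at 175, 168 and 171 CPM against 53, 51.2 and 50.4 CPM (log2 fold change 1.73 ± 0.16 (SE), adjusted p = 5.8e-08), and its libraries hardly varied within a group.

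KLF2, a zinc finger transcription factor, was at 53.7, 72 and 49.2 CPM in S181E and at 23.9, 22.2 and 13.1 CPM in RQ (log2 fold change 1.55 ± 0.19 (SE), adjusted p = 4.5e-06). NPNT, an extracellular matrix protein (1.92), EML1, a microtubule-binding protein (1.54), and LYPD6 (1.45) were further genes of this side. So was DBN1, which encodes the actin-binding protein drebrin. The size for DBN1 rested on 1 library. It was at 74.8, 61.8 and 224 CPM against 45.5, 37 and 50.9 CPM (log2 fold change 1.44 ± 0.46 (SE), adjusted p = 0.033), and without S181E replicate 3 it was 0.62 with an adjusted p of 0.38. Its call was also lost without RQ replicate 1 (adjusted p = 0.080) or RQ replicate 2 (0.10).

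**Figure D1:**
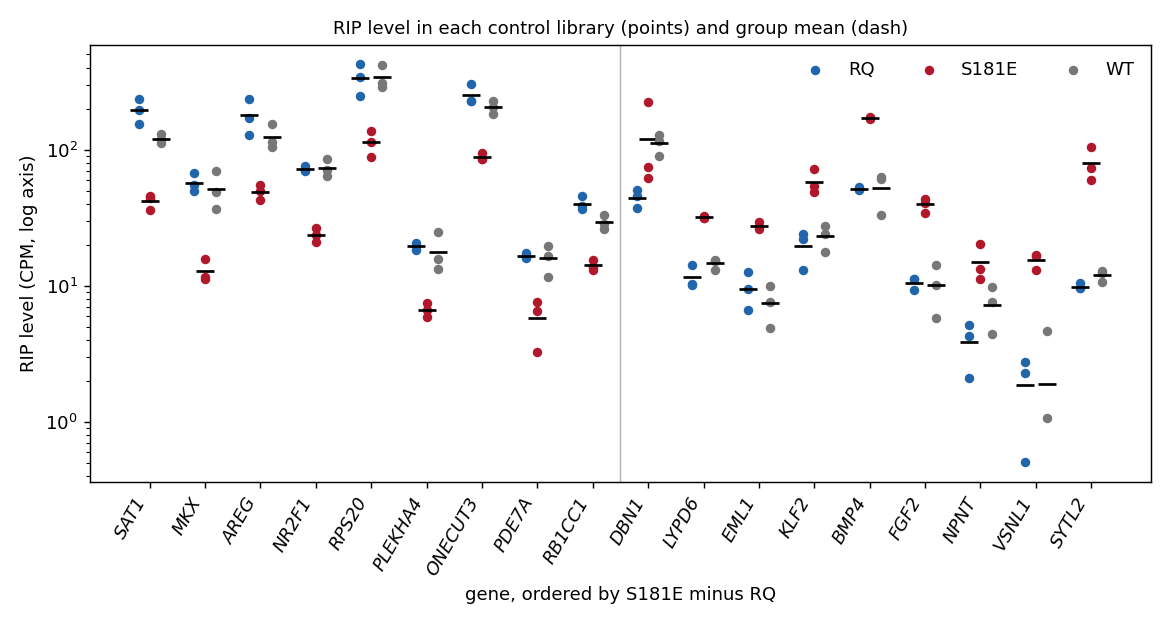
RIP level in CPM on a log axis for 9 of the 10 genes lowest and 9 of the 10 genes highest in S181E relative to RQ, with each control library as a point (RQ, S181E and wild-type) and the group mean as a dash. A level of 0 cannot be drawn on this axis and is left out. S181E and RQ points do not overlap for any gene shown, as the choice of genes required, and for DBN1 one S181E library lies far above the other two.

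Among transcripts of the IGF2BP family and known targets, the differences went both ways. IGF2BP1 itself was at 63.1, 64.9 and 63.1 CPM in S181E and at 118, 102 and 98.3 CPM in RQ (log2 fold change -0.73 ± 0.12 (SE), adjusted p = 0.00011), and these reads come from the transgene and from any endogenous transcript, which the counts do not separate. IGF2BP3 was at 407, 382 and 415 CPM against 270, 266 and 290 CPM (log2 fold change 0.55 ± 0.08 (SE), adjusted p = 3e-05), with higher values in every S181E library. IGF2BP2 was at 225, 209 and 264 CPM against 203, 176 and 279 CPM and overlapped between the groups (log2 fold change 0.09 ± 0.14 (SE), adjusted p = 0.73). Both genes are knocked out in both lines, and counts summed over a gene do not show whether protein is made from it. PABPC1, the cytoplasmic poly(A)-binding protein, was the most abundant of these targets, at 27561, 24848 and 27824 CPM in S181E and 46691, 42254 and 55051 CPM in RQ (log2 fold change -0.84 ± 0.12 (SE), adjusted p = 2.8e-05).

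HMGA2, a chromatin protein regulated by let-7, was at 2651, 2243 and 2778 CPM in S181E and 3345, 2989 and 3526 CPM in RQ (log2 fold change -0.36 ± 0.12 (SE), adjusted p = 0.034). MYC was at 560, 543 and 466 CPM against 634, 672 and 600 CPM (log2 fold change -0.28 ± 0.09 (SE), adjusted p = 0.035), and EIF2A at 158, 155 and 158 CPM against 138, 121 and 126 CPM (log2 fold change 0.29 ± 0.09 (SE), adjusted p = 0.026). The groups were separate for all of them, but the calls were lost when single libraries were left out and in the fit to the 6 libraries alone. The adjusted p of HMGA2 reached 0.14 without S181E replicate 2, and its call was also lost without RQ replicate 1, S181E replicate 1 or RQ replicate 3. That of MYC reached 0.18 without S181E replicate 3, and its call was also lost without RQ replicate 1 or 2. That of EIF2A reached 0.10 without RQ replicate 2, and its call was also lost without RQ replicate 3, S181E replicate 1 or S181E replicate 3. ACTB, which encodes beta-actin, was at 856, 1074 and 760 CPM against 710, 811 and 447 CPM, overlapping (log2 fold change 0.45 ± 0.15 (SE), adjusted p = 0.039), and its call was lost without S181E replicate 2 (adjusted p = 0.19), S181E replicate 1, RQ replicate 1 or RQ replicate 3. XBP1 (log2 fold change -0.24, adjusted p = 0.35), GARS1 (-0.25, 0.13), PHC3 (-0.17, 0.23) and LIPA (0.45, 0.059) did not pass the test. LIPA passed it in 6 of 12 alternative settings (lowest adjusted p = 0.022, without RQ replicate 1). IGF2 was at 4.22 to 4.79 CPM in S181E and 2.74 to 6.70 CPM in RQ. CCDC127 was at 9.95 to 11.95 CPM and 10.7 to 17.0 CPM. Both overlapped, and neither exceeded 10 CPM in enough of the 23 libraries with a tagged protein to be tested.

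IGF2BP1 is known to recognise a bipartite element in the 3′ UTR of ACTB, so canonical transcripts were searched on their own strand for CGGAC, followed after 10 to 25 bases by ACACCC. The element occurred in 0.572% of the 8734 transcripts, in 0.670% of those called lower and in 0.681% of those called higher. Some of the sites in called genes are printed as examples, with both parts of the element in capitals.
ACTB, called higher, 3′ UTR, minus strand, chr7:5527719-5527746: CGGACtatgacttagttgcgttACACCC
IER5L, called lower, 3′ UTR, minus strand, chr9:129176097-129176123: CGGACtcgggggtggcgcctgACACCC
NOCT, called higher, coding sequence, plus strand, chr4:139045277-139045304: CGGACctcaggggagtgcaggcACACCC
DUSP5, called lower, 5′ UTR, plus strand, chr10:110498039-110498062: CGGACaccctggccgtggACACCC
The sites lay in genes of both directions, and a match to these letters is not a measured binding site.

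The genes lower in S181E were unevenly spread over the genome. Of 196 tested genes on the long arm of chromosome 8, 126 were called lower and 1, KLF10, higher, against 8.54 and 10.1% of all genes. In all, 185 of these genes had a log2 fold change below 0, with a median of -0.55 (10th to 90th percentile -1.03 to -0.12). The short arm, with 117 genes, had a median of 0.14, with 9 genes lower and 20 higher, and the medians of 22 other chromosomes lay between -0.06 and 0.11. This pattern and the division at the centromere were noticed in the data and are given as a description.

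The long-arm median relative to the RQ mean was -0.52, -0.57 and -0.49 in the 3 S181E libraries and 0.03, 0.00 and -0.01 in the RQ libraries. Every S181E library was low and every RQ library was near 0, on the scale of log2 of CPM plus 1. Against wild-type, the long-arm median was -0.53 for S181E and 0.05 for RQ. Against Y396E, the second phosphomimetic mutant, S181E was at 0.06. In arsenite, in separate libraries of the same lines, the long-arm median of S181E minus RQ was -0.58, with 104 genes lower and 0 higher. DNA copy number was not measured in these files, and its part in the result was not tested.

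Long-arm genes included PABPC1, RPS20, MYC, RB1CC1 and PDE7A given above. SPIDR, a DNA repair scaffold and the first tested gene of the arm, averaged 31.2 CPM in S181E and 59.3 CPM in RQ (log2 fold change -0.93 ± 0.11 (SE), adjusted p = 4.2e-06). HGSNAT, a lysosomal acetyltransferase and the last tested gene of the short arm, was also lower (log2 fold change -0.86 ± 0.12 (SE), adjusted p = 1.8e-05). CHD7, a chromatin remodeller, averaged 134 CPM against 274 CPM (log2 fold change -1.03 ± 0.11 (SE), adjusted p = 4.1e-07). YTHDF3, a reader of m6A, averaged 59.9 CPM against 106 CPM (log2 fold change -0.82 ± 0.10 (SE), adjusted p = 3.5e-06). COPS5, in the midst of these genes, did not pass the test (0.02). Long-arm genes made up 16.9% of the genes called lower and 2.24% of those tested. Without them, and with p-values adjusted again, 603 genes were lower and 857 higher.

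**Figure D2:**
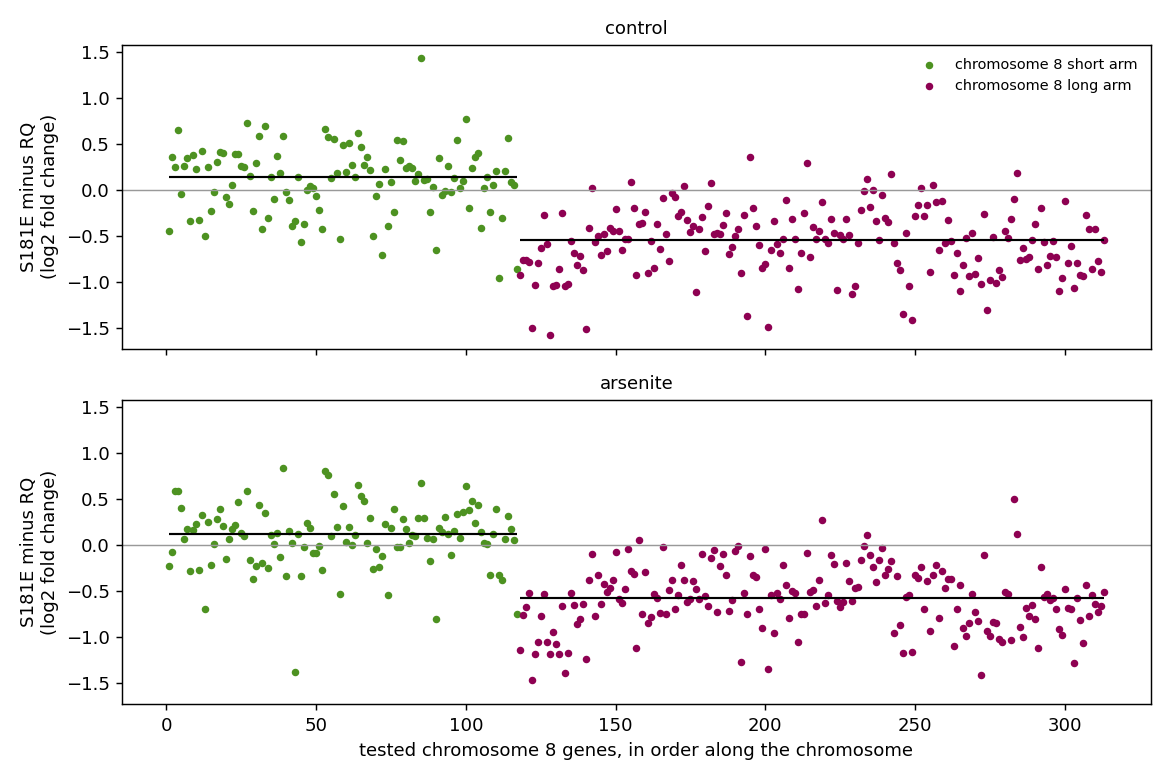
Log2 fold change of S181E minus RQ for each tested gene of chromosome 8, in order along the chromosome, in control (top) and arsenite (bottom). Points are genes, coloured by arm, and black lines are the arm medians, 0.14 and -0.55 in control. Most long-arm genes lie below 0 in both treatments, and HGSNAT, the last point of the short arm, lies as low as its long-arm neighbours.

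Several gene lists lay to the lower side in S181E. Cholesterol synthesis genes were lower as a group, with 9 of 21 called lower and 0 higher (median log2 fold change -0.42, against 0.03 over all genes). SREBF2, the transcription factor that drives this pathway, was at 298, 263 and 343 CPM in S181E and 741, 645 and 689 CPM in RQ (log2 fold change -1.20 ± 0.10 (SE), adjusted p = 1.5e-08). SQLE, squalene epoxidase and a long-arm gene, was at 13.2, 17 and 10.9 CPM against 40.1, 31.6 and 32.6 CPM (log2 fold change -1.35 ± 0.15 (SE), adjusted p = 1.4e-06). The summed level of the 21 genes was 1164 to 1232 CPM in S181E and 1792 to 1974 CPM in RQ, without overlap. SREBF2 alone contributed much of this difference. The list also holds regulators of the pathway, such as SREBF2, SREBF1 and INSIG1, besides its enzymes. SREBF1 (-0.57), STARD4 (-0.48) and INSIG1 (-0.45) were also called lower. Outside the chromosome 8 long arm 8 of 20 were lower. In the fit to the 6 libraries alone 4 were called.

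Of the cytosolic ribosomal proteins, 28 of 77 were called lower and 1, RPL7L1, higher, with a median of -0.46. RPS20 was at 115, 138 and 87.7 CPM against 344, 422 and 248 CPM, and RPL15 at 1299, 1254 and 1174 CPM against 1813, 1965 and 1634 CPM (log2 fold change -0.54 ± 0.09 (SE), adjusted p = 0.00019). This count depended on single libraries. It was 56 without RQ replicate 3, 17 without S181E replicate 1, 13 without RQ replicate 1, 7 without S181E replicate 3 and 5 without RQ replicate 2. The median ran from -0.68 to -0.22 over the 6 omissions, the fit to the 6 libraries alone called 3, and scaling by total counts gave 11. Outside the long arm of chromosome 8, which holds RPS20, RPL7, RPL8 and RPL30, 24 of 73 were lower. The summed levels overlapped, at 30223 to 47630 CPM in S181E and 38737 to 67424 CPM in RQ. Nuclear genes of the respiratory chain had 10 of 71 lower and 0 higher (median -0.24), among them UQCRB (-1.37), a long-arm gene, and NDUFC1 (-0.89). Outside the long arm 7 of 67 were lower, near the share over all genes, and with total counts 4 were lower and 2 higher. The count was 23 without RQ replicate 3, 6 without replicate 1 of either line and 3 without RQ replicate 2 or S181E replicate 3. It was also 3 in the fit to the 6 libraries alone.

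Among targets of ATF4, the transcription factor of the integrated stress response, 7 of 18 were lower and 2 higher (median -0.24). TRIB3, a pseudokinase, was at 42.6, 35.7 and 37.3 CPM against 82, 87.2 and 76.2 CPM (log2 fold change -1.09 ± 0.10 (SE), adjusted p = 1.3e-07), and SLC7A5, an amino acid transporter, at 858, 863 and 930 CPM against 1537, 1496 and 1549 CPM (log2 fold change -0.79 ± 0.09 (SE), adjusted p = 1e-06). In both, RQ was the line that stood away from wild-type, whose means were 33.1 and 884 CPM. XPOT and ATF3 were the members called higher. The number of lower members was 4 without S181E replicate 3 and 3 in the fit to the 6 libraries alone. Immediate early genes had 10 of 31 lower and 3 higher (median -0.21). JUN, a subunit of AP-1, was at 10.7, 12.6 and 12 CPM against 32.6, 28.5 and 30.6 CPM (log2 fold change -1.38 ± 0.14 (SE), adjusted p = 2.5e-07), opposite to KLF2. The count was 6 without RQ replicate 1, S181E replicate 1 or S181E replicate 3, and also with total counts. The fit to the 6 libraries alone called 3 lower and 1 higher.

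Epithelial adhesion genes and keratins had 6 of 18 lower and 1, PKP2, higher. CLDN4, a tight junction protein, was at 126, 144 and 125 CPM against 358, 437 and 307 CPM (log2 fold change -1.48 ± 0.12 (SE), adjusted p = 1.3e-08), and ELF3, an epithelial transcription factor, at 16.3, 16.9 and 16.4 CPM against 34, 31.9 and 27.9 CPM (log2 fold change -0.92 ± 0.13 (SE), adjusted p = 1.8e-05). The groups were separate for both. The count was 3 without S181E replicate 1, with total counts and in the fit to the 6 libraries alone. Targets of p53 had 6 of 24 lower and 1, BAX, higher, and outside the long arm 4 of 22 were lower. GDF15, a stress-induced cytokine, was at 57.4, 65.5 and 49.5 CPM against 163, 197 and 104 CPM (log2 fold change -1.43 ± 0.17 (SE), adjusted p = 3.3e-06). The NRF2 and metallothionein genes went both ways, with 4 of 20 lower and 6 higher (median 0.12). The metallothioneins MT1E (-1.33) and MT2A (-1.21), which bind metal ions, were lower, as were the cystine transporter SLC7A11 and the autophagy receptor SQSTM1, and the redox enzymes TXNRD1 (0.55) and NQO1 (0.43) were higher, as were FTL, GCLM and OSGIN1. The count of higher genes was 2 without RQ replicate 3 and 3 without S181E replicate 2. In the fit to the 6 libraries alone, 1 of this list was higher and 2 lower, and 4 of the p53 targets were lower.

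Other lists lay to the higher side. Of 37 cell cycle genes, 17 were called higher and 1, the long-arm gene MCM4, lower (median 0.31). CDK6, a kinase of the G1 phase, was at 327, 304 and 366 CPM in S181E and 146, 124 and 177 CPM in RQ (log2 fold change 1.16 ± 0.13 (SE), adjusted p = 1.6e-06). The mitotic and replication genes CCNA2 (0.96), TOP2A (1.02) and BUB1 (0.66) were higher too. The summed level of the list was 4098 to 4333 CPM in S181E and 3483 to 3607 CPM in RQ, without overlap. Omitting single libraries left 13 to 15 higher, and the fit to the 6 libraries alone called 4.

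Kinesins and dyneins, the motors that run on microtubules, had 9 of 35 higher and 1, the long-arm gene KIFC2, lower. KIF11, a mitotic kinesin, was at 42.5, 44.2 and 52.8 CPM against 32.4, 28 and 17.1 CPM (log2 fold change 0.84 ± 0.16 (SE), adjusted p = 0.00063). Actin cytoskeleton genes had 10 of 44 higher and 1 lower. TPM3, a tropomyosin, was at 365, 333 and 368 CPM against 240, 252 and 257 CPM (log2 fold change 0.51 ± 0.09 (SE), adjusted p = 0.00037). The counts of higher genes in the fit to the 6 libraries alone were 0 for the motors and 2 for the actin genes, and with total counts they were 14 and 17.

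Stress granule and P-body proteins had 6 of 33 higher and 1, the long-arm gene AGO2, lower. G3BP1, a core stress granule protein, was at 195, 189 and 207 CPM against 157, 131 and 165 CPM (log2 fold change 0.38 ± 0.10 (SE), adjusted p = 0.0092). Its call was lost without RQ replicate 2 (adjusted p = 0.064) and in the fit to the 6 libraries alone (0.12). The list had 2 higher without RQ replicate 2 or S181E replicate 3. In the fit to the 6 libraries alone it had 0 higher and 0 lower. Proteasome genes had 6 of 39 higher and 1 lower, with PSMD11 at 137, 145 and 146 CPM against 90.4, 90.1 and 78.5 CPM (log2 fold change 0.72 ± 0.10 (SE), adjusted p = 3e-05). In the WNT pathway, TCF7L2, a nuclear effector, was lower (log2 fold change -0.71 ± 0.09 (SE), adjusted p = 6.6e-06), and DKK1, a secreted inhibitor, was higher (log2 fold change 1.14 ± 0.15 (SE), adjusted p = 1.7e-05). Of the 27 members, 3 were lower and 5 higher, and 2 were higher without RQ replicate 2 or S181E replicate 3. In the fit to the 6 libraries alone 1 was lower and 1 higher, and the proteasome list had 3 higher. Called either way were 21.2% of the stress granule, 17.9% of the proteasome and 29.6% of the WNT list, against 18.6% of all genes.

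Further lists were mixed or had few calls. In all, 39 lists were examined, and some are not described here. In those, the share called ran from 4.44% of the histones to 40% of the let-7 oncofetal targets. Over all genes, 8.54% were called lower and 10.1% higher, together 18.6%. Called either way were 24.3% of the RAB GTPases and 31.25% of the m6A machinery. In the fit to the 6 libraries alone, RAB GTPase, m6A, glycolysis and hypoxia, and polycomb genes each had 0 higher and 1 lower. Heat shock chaperones had 1 on either side there, and mitochondrial ribosomal proteins had 0 lower. RAB GTPases, which direct vesicle transport, had 7 of 37 higher and 2 lower, with RAB5C at 171, 170 and 159 CPM against 120, 127 and 122 CPM (log2 fold change 0.44 ± 0.10 (SE), adjusted p = 0.0027). Without S181E replicate 3, 3 of the list were higher, and 4 without S181E replicate 1 or RQ replicate 2. The m6A machinery had 3 of 16 higher and 2 lower, among them the reader YTHDF2 (0.37) and the demethylase FTO (0.52) on the higher side, and with total counts 6 were higher and 1 lower. The lower count was 1 without RQ replicate 1, S181E replicate 2 or S181E replicate 3. Heat shock chaperones had 3 of 17 on either side, with HSPA8, a constitutive HSP70, at 362, 434 and 360 CPM against 267, 253 and 197 CPM (log2 fold change 0.69 ± 0.10 (SE), adjusted p = 4.7e-05), and HSF1, the factor that drives these genes and a long-arm gene, was lower (log2 fold change -0.56 ± 0.11 (SE), adjusted p = 0.0012). Glycolysis and hypoxia genes had 4 of 30 higher and 3 lower, near the shares over all genes, with SLC2A1, the glucose transporter GLUT1, higher (log2 fold change 0.74 ± 0.15 (SE), adjusted p = 0.0014) and NDRG1, another long-arm gene, lower (log2 fold change -0.89 ± 0.19 (SE), adjusted p = 0.0024). The higher count was 1 without RQ replicate 3, 2 without replicate 2 of either line and 7 with total counts. The calls of RAB5C (adjusted p = 0.053), FTO (0.056), HSF1 (0.078) and SLC2A1 (0.0503) were lost in the fit to the 6 libraries alone. Polycomb genes had 4 of 29 higher and 2 lower, near the shares over all genes, with PHC2 on the lower side (log2 fold change -0.46 ± 0.09 (SE), adjusted p = 0.00069). Without S181E replicate 3, 1 was higher and 1 lower, and 2 were higher without S181E replicate 1. Mitochondrial ribosomal proteins had 4 of 61 lower and 0 higher (6.56% called), below the share over all genes. The lower count was 1 without RQ replicate 2, 2 without S181E replicate 3 and 7 without RQ replicate 3.

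**Figure D3:**
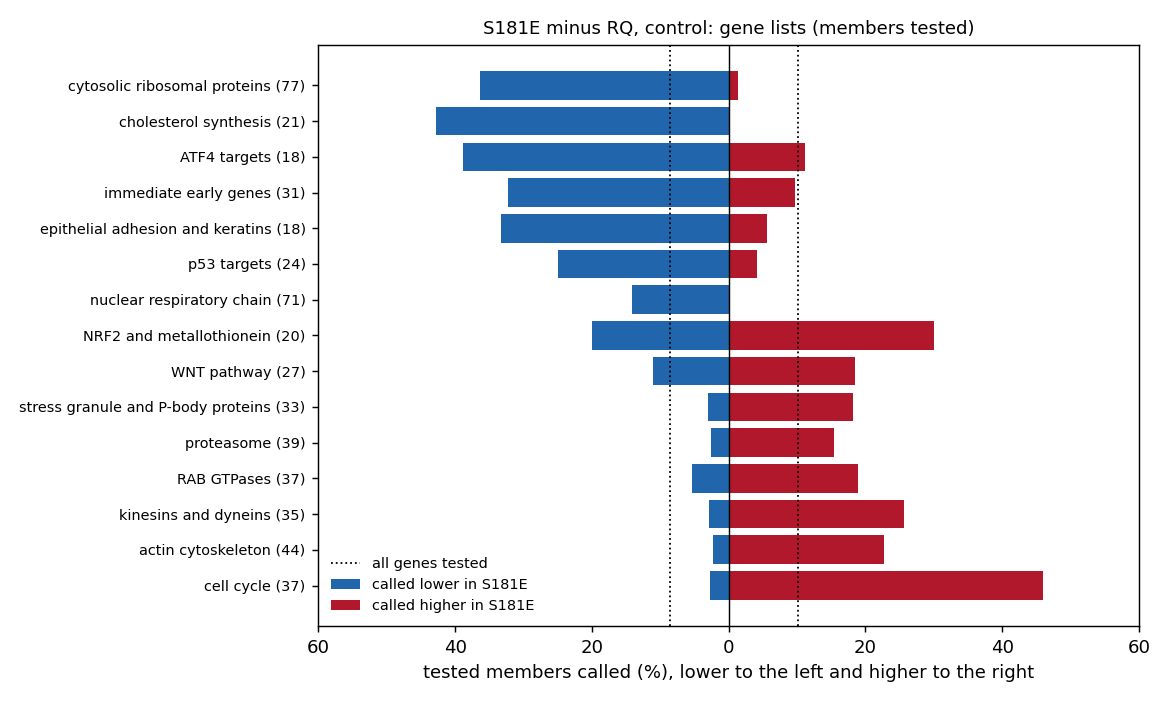
Share of the tested members of 15 of the 39 gene lists called lower (left) or higher (right) in S181E relative to RQ, in percent. The number tested is in brackets, and dotted lines are the shares over all genes, 8.54 and 10.1%. Cholesterol synthesis, ribosomal protein and ATF4 target genes lie furthest to the left and cell cycle genes furthest to the right.

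The wild-type libraries, which entered the fit but neither side of the comparison, lay closer to RQ for most called genes. Wild-type was nearer to RQ than to S181E for 515 of the 746 lower genes (69.0%) and for 666 of the 881 higher genes (75.6%). The comparisons of each mutant with wild-type share libraries with this one, so the values are given side by side. Called genes were 20.8% for S181E minus wild-type and 6.34% for RQ minus wild-type. NR2F1 had log2 fold changes of -1.63 for S181E minus wild-type and -0.03 for RQ minus wild-type. BMP4 had 1.70 and -0.03. IGF2BP1 had the reverse, with 0.01 and 0.74, and PABPC1 was below wild-type in both, with -1.42 and -0.57.

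The same lines were also assayed after 2 h in 500 µM sodium arsenite, with 3 S181E and 2 RQ libraries. They give none of the control means, but they shared the estimate of the spread in the fit to 23 libraries. Of the genes lower in control, 696 of 746 (93.3%) were below 0 in arsenite, where 48.1% of all genes were, and of those higher, 801 of 881 (90.9%) were above 0, where 51.9% of all genes were. Called in the same direction in arsenite were 311 and 203 genes, while 5.66 and 3.46% of all genes were called lower and higher there, together 9.11%. Across the 8734 genes, which are not independent, Pearson's r between the treatments was 0.65 and Spearman's rho 0.59. SAT1 (-1.67), MKX (-1.95), SYTL2 (2.78) and BMP4 (1.62) had similar log2 fold changes in arsenite. Both treatments used the same lines, so the arsenite libraries do not separate the mutation from the line. Much of the RNA in arsenite was also near the level in parental cells, which lack the tagged protein. The ratio of the S181E mean in arsenite to the 1 parental arsenite library had a median of 1.18 over all genes. It was 1.28 for the genes lower in control and 1.52 for those higher. The arsenite calls depended on single libraries, with 206 lower and 69 higher without RQ replicate 2, 226 and 89 without RQ replicate 1, 294 and 165 without S181E replicate 3, and 167 higher without S181E replicate 1.

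The difference between S181E and RQ itself changed with treatment for 12 genes (0.137% of those tested; 740 at an unadjusted p under 0.05). SESN2, a stress-induced regulator of mTORC1, overlapped in control, at 14.5, 12.7 and 12.2 CPM in S181E and 15.7, 14.5 and 11.2 CPM in RQ. In arsenite it was at 45.1, 42.5 and 41.4 CPM in S181E and 137 and 161 CPM in RQ, and the difference between the treatments was 1.71 ± 0.20 (SE), adjusted p = 7.6e-05. ATF3, a stress-induced transcription factor, changed sides, from 0.52 in control to -0.71 in arsenite (1.23 ± 0.18 (SE), adjusted p = 0.0022). JUN had log2 fold changes of -1.38 in control and -0.21 in arsenite (-1.17 ± 0.20 (SE), adjusted p = 0.014). SLC3A2, a subunit of amino acid transporters, went from -0.04 to -0.79 (0.76 ± 0.14 (SE), adjusted p = 0.028). In the 1 arsenite library of parental cells, which lack the tagged protein, SESN2 was at 54.3 CPM, ATF3 at 242 CPM, JUN at 730 CPM and SLC3A2 at 225 CPM. Ratios to this level were taken with all 25 libraries scaled together. The S181E mean in arsenite was 0.84 times the parental level for SESN2, 0.70 for ATF3, 0.30 for JUN and 1.08 for SLC3A2. In S181E these RNAs were thus not enriched by more than 1.08 times over the untagged background. The RQ means in arsenite, scaled over the 23 tagged libraries, were 149, 260, 240 and 397 CPM in the same order. RQ thus lay well above the parental level for SESN2 and SLC3A2, near it for ATF3 and below it for JUN.

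**Figure D4:**
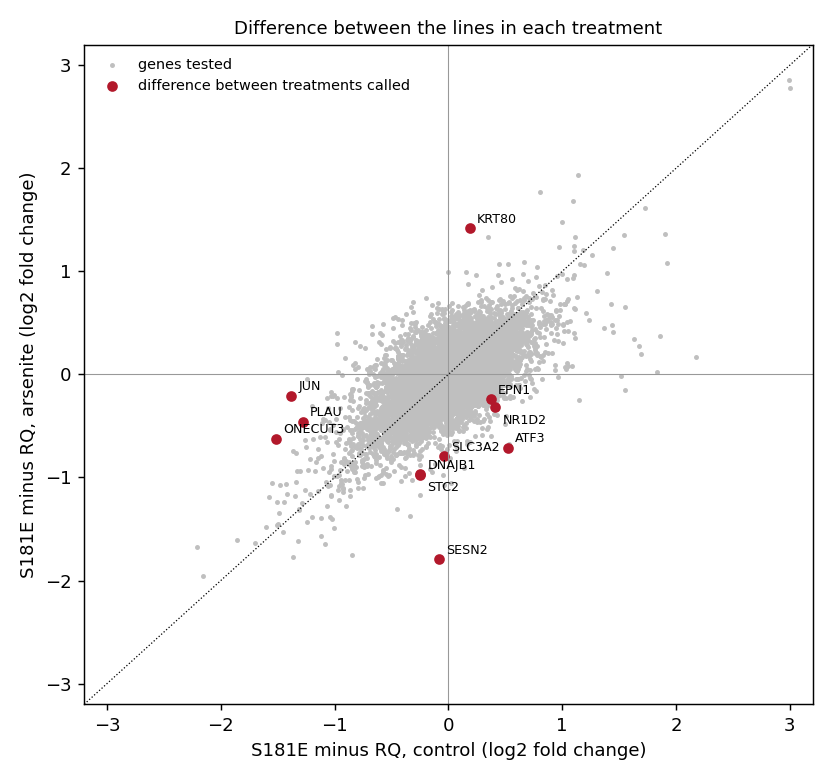
Log2 fold change of S181E minus RQ in control (horizontal) and in arsenite (vertical) for the 8734 genes tested (grey), with 11 of the 12 genes whose difference changed with treatment in red and the line of equal values dotted. The values in control and arsenite are correlated (Pearson's r 0.65), and SESN2 lies farthest from it among the red points.

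Called genes differed in base composition. Canonical transcripts (GENCODE, hg38) had a median GC content of 48.2% over all genes tested, 54.0% for genes called lower outside the chromosome 8 long arm and 44.8% for genes called higher. With the genes outside the long arm split into 5 bins of GC content, from the lowest bin to the highest the median log2 fold change went from 0.10 to -0.07 in control and from 0.14 to -0.17 in arsenite, and the share called lower from 3.54 to 10.6%. Libraries of one group differed in this respect. The level of the highest bin relative to the lowest was -0.12, 0.08 and -0.20 (log2) in the S181E libraries and 0.14, 0.24 and -0.14 in the RQ libraries, which overlap. Its part in the calls was not tested. The median 3′ UTR length was 1537 bases over all genes, 1357 for the lower genes outside the long arm and 1909 for the higher genes.

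Relative to the RIP of parental cells, which lack the tagged protein, 4301 genes reached at least 4-fold in S181E and 4265 in RQ, of which 4207 were shared, 97.8% of the S181E genes and 98.6% of the RQ genes. Of the 8734 genes, 3572 were at 0 in the parental library and passed at any level above 0, so the shared number is largely set by these genes. When parental counts below 3 were set to 3, the numbers were 4211, 4155 and 4053. A parental count of 1 was 0.675 CPM on this scale, so this floor stays low beside the filter of 10 CPM. It therefore cannot decide how many of these genes are enriched. By single library the numbers ran from 4251 to 4328 in S181E and from 4224 to 4305 in RQ. The parental control library was 1 library of 1238013 counts, so these numbers have no replicate error for the background.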

How the data were processed

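RIP-seq counts from 6 control libraries (3 S181E, 3 RQ) were analysed. The authors aligned reads to hg38 with STAR 2.7.11b and counted exons per gene with featureCounts (Subread 2.0.6), and deposited whole-number counts, not normalized, for 63086 genes. Symbols and biotypes came from another GENCODE release by Ensembl ID (62541 found). Reads mapping to several places may be missing, so near-identical genes are uncertain. Protein-coding genes that exceeded 10 CPM in 11.5 or more of 23 libraries with a tagged protein (8734) were fitted with 8 groups in edgeR 4.0.16 (R 4.3.3; TMM, quasi-likelihood, Benjamini-Hochberg), with limma 3.58.1 and DESeq2 1.42.0 as alternatives. CPM of single genes and markers in tagged libraries use TMM over those 23 libraries. Parental levels, ratios to them, 4-fold counts and summed levels of gene lists use TMM over 25 libraries. Parental libraries entered no test. Named genes were the IGF2BP genes and targets the study names, the 10 lowest and 10 highest called genes with separate groups, the 2 lowest p in lists with at least 3 calls, and the 5 lowest interaction p. Other genes, among them those of chromosome 8, were named after their values were seen. Some genes that the rule names are not reported here. The chromosome 8 arms were split at 45000000 bp after the data were seen. The members and lists were chosen with earlier results of these data known. On simulated data for S181E minus RQ in control (8734 genes, 200 changed), 40% of 55 genes changed by 0.5 on the log2 scale were called. For changes of 1 and 2, 88.6% of 70 and 100% of 75 genes were called. Of 169 calls, 10 were false. The simulation gave a gene the same spread in all groups. The control groups varied more than the arsenite groups, so these shares may be too high for control. No pair of libraries held identical counts.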

Additional observations from a re-analysis of the deposited data

Results flagged for a closer look

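For 12 genes, the difference between S181E and RQ (log2) changed between control and arsenite, as tested by the interaction term across all genes in edgeR, and for the 11 given here each value is the control difference minus the arsenite difference. SESN2 was at 1.71, ATF3 at 1.23, SLC3A2 at 0.76, STC2 at 0.73, NR1D2 at 0.73, DNAJB1 at 0.72 and EPN1 at 0.61, so that S181E was lower relative to RQ in arsenite than in control. KRT80 was at -1.23, JUN at -1.17, ONECUT3 at -0.89 and PLAU at -0.82, in the other direction. DNAJB1, an HSP40 co-chaperone, was at 322, 324 and 313 CPM in S181E after arsenite, against 625 and 628 CPM in RQ. KRT80, a keratin, was at 20.8, 19.1 and 24.5 CPM and 7.35 and 8.75 CPM there. In the parental arsenite library, scaled over 25 libraries, DNAJB1 was at 1005 CPM and KRT80 at 17.2 CPM. The RQ arsenite group had 2 libraries, and without any 1 of the 5 arsenite libraries the interaction called 0 to 2 genes on the lower and 2 or 3 on the higher side.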

How the results depend on the processing

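For S181E minus RQ in control, 746 genes were lower and 881 higher. These numbers were 273 and 231 with glmTreat against a 20% change, and 1527 and 1538 with limma voom and sample weights. They were 217 and 174 in the fit to the 2 groups, and 315 and 314 with the libraries of the same treatment. With total counts 1368 were higher. A fit to only the 4272 genes enriched 4-fold or more over parental cells gave 318 and 405. These counts have a smaller base than the 8734 genes of the main fit. Leaving out single libraries gave 543 to 900 lower and 556 to 984 higher. In arsenite, 494 and 302 became 196 and 59 with glmTreat and 1278 and 1141 with voom. They became 1310 and 1161 in the 2 groups, and 1316 and 1185 within treatment. Only 713 genes reached 4-fold over the parental RIP there, and 59 of them were lower and 42 higher. The higher genes in arsenite numbered 624 with total counts, 169 with TMM over genes not enriched over parental cells and 478 with DESeq2. Leaving out single libraries gave 206 to 367 lower and 69 to 239 higher in arsenite. The interaction, 4 lower and 8 higher, became 22 and 31 with DESeq2 and 1 and 2 with the S181E and RQ libraries alone, and leaving out single libraries gave 0 to 6 and 2 to 9. The fits to fewer libraries estimate the spread from fewer samples, and the median SD of log2 levels was 0.14 to 0.24 in the control groups and 0.09 to 0.11 in the arsenite groups. The cause of the changes was not tested. Control deviations of same-numbered libraries correlated at 0.009, 0.46 and 0.47, and those of different numbers at -0.56 to 0.11. In arsenite same-numbered libraries correlated at 0.20 and 0.42. Deviations are taken from the group mean, so these values are not independent. The main fit did not use the replicate number, and whether it pairs the samples was not tested. With the replicate number as a block, control gave 904 and 1031 genes in the 2 groups and 1096 and 1250 in all libraries, arsenite 1430 and 1401 or 807 and 594, and the interaction 28 and 73. Of 83 called genes among the 90 named by the rule, 53 kept the call in all 12 settings, 30 lost it in the fit to the 2 groups, and 0 reversed. LIPA and XBP1, not called, gained a call in 6 and 1 of the settings. Leaving out the chromosome 8 long arm, an alternative chosen after seeing the data, gave 603 and 857 genes in control and 366 and 276 in arsenite. Total counts of 23063983 to 60273548 per library limit the precision of genes near 10 CPM.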
